A study of Mus musculus with 6 samples.

Results

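The genes described here are 10 that mark T cells: Cd3d, Cd3e, Cd3g, Cd4, Cd8a, Cd8b1, Il7r, Ccr7, Lef1 and Foxp3. They were taken by name, with every probe set that the array annotation ties to one of them and to no other gene. This gave 17 probe sets for the 10 genes, out of 18193 genes that the array names in this way. Spleen RNA of 3 garlic-fed mice and 3 control mice was compared, with 1 array for each mouse. All were male C57BL/6J mice that were 8 weeks old at the start and spent 15 weeks on the diet. Both groups ate the same casein and cornstarch diet, which held 4% lyophilized raw garlic powder for the garlic-fed mice and 4% cellulose for the control mice. Every spleen came from a different animal, and whole spleen was used. The arrays are on a common scale, so the values of T cell genes follow their share of the spleen's RNA. That share depends on how many T cells a spleen held, on how much of each mRNA a T cell held and on the RNA of other cells. Fewer T cells, less RNA per T cell and more RNA from other cells cannot be told apart here. The study asked how the gene expression of the spleen differed between the diets.

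A probe set is a group of short oligonucleotides that together read 1 mRNA, and its signal is the brightness of the labeled RNA bound to it, given as a MAS5 signal on a linear scale. The deposited arrays share 1 trimmed mean, and the middle signal of an array was 119.7 to 128.8 in garlic-fed mice and 127.9 to 132.2 in control mice. Differences were tested with limma on log2 signals over 27022 probe sets, and p-values were adjusted over all of these by the Benjamini-Hochberg method. Each p-value sets a difference against the spread between mice inside the diet groups. That spread was moderated toward a trend over all probe sets tested, so it is not the probe set's own spread alone. All 17 probe sets of the T cell genes were bright enough to be tested. Their mean signals stood between percentile 48.8 of all probe sets, for Foxp3, and percentile 97.3, for Cd3d, and none was under the floor of 23.5 in any mouse. All 10 genes thus gave signals above the floor in every spleen, but presence was not tested against background. Foxp3, at 94.6 to 134.5, lay near the middle signal of the arrays. Brightness does not rank the mRNAs of different genes, since each probe set binds its target to its own degree.

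T cells enter the white pulp of the spleen from the blood and collect around its arterioles, in the T cell zone. A T cell recognizes antigen through its receptor, whose signal is passed into the cell by the CD3 chains. The coreceptors CD4 and CD8 bind to the molecules that present the antigen and divide T cells into helper and cytotoxic cells. Resting T cells live on interleukin-7 and find their zone through the chemokine receptor CCR7. A minority, the regulatory T cells, carry the transcription factor Foxp3 and restrain the others.

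Among the 10 genes, those of the CD3 chains and of CD4 gave slightly lower signals in garlic-fed spleens, and Il7r gave higher ones. None of these differences passed the adjusted test. The sequences in front of these genes were taken from RefSeq (GRCm38.p6), which held this region for 7 of the 10 genes. Shown are the 200 bases before the start given by the promoter annotation, for the 3 CD3 genes, whose products work in 1 complex, and for Il7r, whose signal differed the other way. For Cd3d, Cd3e and Il7r the annotated gene span begins before this start, so the last bases of their windows lie inside the gene. In each of these 3 genes the CTTCC match nearest the start lies in that part. Cd3d and Cd3g lie head to head on chromosome 9, with 1355 bases between the starts used here. Capitals mark matches, on either strand, to GGAAG (the core of sites of ETS factors), CAGNTG (a kind of E-box), CTTTG (the core of sites of TCF and LEF factors) and GATAA (the core of sites of GATA factors).
Cd3d (chr9:44981586-44981785, plus strand): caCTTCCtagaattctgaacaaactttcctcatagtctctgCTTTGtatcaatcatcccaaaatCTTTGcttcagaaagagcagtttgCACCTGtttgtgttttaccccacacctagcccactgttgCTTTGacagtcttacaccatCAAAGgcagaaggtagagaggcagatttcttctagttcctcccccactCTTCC
Cd3e (chr9:45009612-45009811, minus strand): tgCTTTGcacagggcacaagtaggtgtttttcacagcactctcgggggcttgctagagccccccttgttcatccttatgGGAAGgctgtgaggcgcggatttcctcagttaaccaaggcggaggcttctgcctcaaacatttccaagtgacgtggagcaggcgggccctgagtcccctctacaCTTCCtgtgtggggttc
Cd3g (chr9:44980432-44980631, minus strand): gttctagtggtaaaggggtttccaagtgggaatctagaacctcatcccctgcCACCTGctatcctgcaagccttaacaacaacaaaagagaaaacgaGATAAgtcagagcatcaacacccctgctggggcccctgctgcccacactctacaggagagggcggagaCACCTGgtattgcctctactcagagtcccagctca
Il7r (chr15:9529877-9530076, minus strand): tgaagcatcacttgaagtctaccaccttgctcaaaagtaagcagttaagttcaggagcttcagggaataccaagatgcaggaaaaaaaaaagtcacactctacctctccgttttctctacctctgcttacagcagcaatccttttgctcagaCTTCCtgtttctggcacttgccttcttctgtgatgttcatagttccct
In these windows Cd3d had 4 matches to CTTTG, Cd3e 1, and Cd3g and Il7r none. Cd3g had 2 matches to CAGNTG and Cd3d had 1. GGAAG was matched 2 times each in Cd3d and Cd3e and 1 time in Il7r, and GATAA 1 time, in Cd3g. No match overlapped another. Of 32809 windows of this length before mouse gene starts, 56.8% held GGAAG, 37.9% CAGNTG, 40.3% CTTTG and 18.1% GATAA, so that a match by itself is common.

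The CD3 chains carry the signaling motifs of the T cell receptor complex. The signal of Cd3e, the gene of CD3ε, was 1182, 1141 and 1145 in the garlic-fed mice and 1311, 1319.6 and 1374 in the control mice. All garlic-fed mice lay below all control mice, with little spread inside either group. The means were 1156 ± 22.7 in garlic-fed mice and 1335 ± 33.9 in control mice (SD, n = 3 each). This is a difference of -13.4%, with a log2 fold change of -0.21 (95% interval -0.42 to 0.0055, standard error 0.096, adjusted p = 0.470 from limma), which did not pass the test.

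Cd3g, the gene of CD3γ, gave 1965, 2455 and 2373 in the garlic-fed mice and 2624, 2594 and 2506 in the control mice. The groups did not overlap, but garlic-fed mouse 2 came close to control mouse 3. Its log2 fold change was -0.19 (95% interval -0.42 to 0.040, standard error 0.10, adjusted p = 0.552). Cd3d, the gene of CD3δ, gave 4508, 5642 and 4473 in the garlic-fed mice and 4935, 5282 and 5350.4 in the control mice. Garlic-fed mouse 2 had the highest Cd3d signal of all 6 mice and the other garlic-fed mice the lowest, so the groups overlapped. The log2 fold change of Cd3d was -0.098 (95% interval -0.33 to 0.13, standard error 0.10, adjusted p = 0.794). It was 0.089 with pancreatic signal as a covariate, so the sign of Cd3d depended on that choice.

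CD4 is the coreceptor of helper and regulatory T cells, and is also made by some dendritic cells. The brighter of its 2 probe sets (1419696_at) gave 782, 929 and 846 in the garlic-fed mice and 1002, 951 and 1028 in the control mice. All garlic-fed mice lay below all control mice, mouse 2 being the closest pair. The means were 852 ± 73.7 in garlic-fed mice and 994 ± 39.1 in control mice (SD, n = 3 each), with a log2 fold change of -0.22 (95% interval -0.48 to 0.026, standard error 0.11, adjusted p = 0.507). The dimmer probe set (1427779_a_at) gave 147, 179 and 236 in the garlic-fed mice and 321, 229 and 296 in the control mice. Here garlic-fed mouse 3 lay just above control mouse 2, so the groups overlapped. Its log2 fold change, -0.60 (95% interval -1.10 to -0.11, standard error 0.22, adjusted p = 0.342), was the largest of the 17 in size and did not pass either.

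CD8 is the coreceptor of cytotoxic T cells, built of α and β chains, and the α chain is also found on a class of dendritic cells. Cd8a, the gene of the α chain, was read by 5 probe sets, which did not give 1 answer. The brightest (1451673_at) gave 1345, 1257 and 1267 in the garlic-fed mice and 1222, 1342 and 1437 in the control mice. Its groups overlapped over most of their range, with a log2 fold change of -0.046 (95% interval -0.28 to 0.19, standard error 0.10, adjusted p = 0.915) that turned to 0.032 with arrays centred on their median. A second probe set (1444078_at) gave 1021, 1029 and 1133 in the garlic-fed mice and 1157, 1341 and 1336 in the control mice. On it all garlic-fed mice were below all control mice, with a log2 fold change of -0.27 (95% interval -0.51 to -0.023, standard error 0.11, adjusted p = 0.410). The other 3 probe sets of Cd8a had overlapping groups and log2 fold changes of 0.047, 0.041 and -0.14. Of the 5, 4 turned sign in at least 1 alternative treatment of the data, and 1444078_at in none of those run.

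Cd8b1, the gene of the β chain, gave 1755, 1611 and 1546 in the garlic-fed mice and 1766, 1711 and 1734 in the control mice. Garlic-fed mouse 1 stood among the control mice and the other garlic-fed mice below them. The log2 fold change of Cd8b1 was -0.087 (95% interval -0.30 to 0.12, standard error 0.095, adjusted p = 0.803). The difference between Cd4 and the CD8 genes in their shift was not tested.

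**Figure D1:**
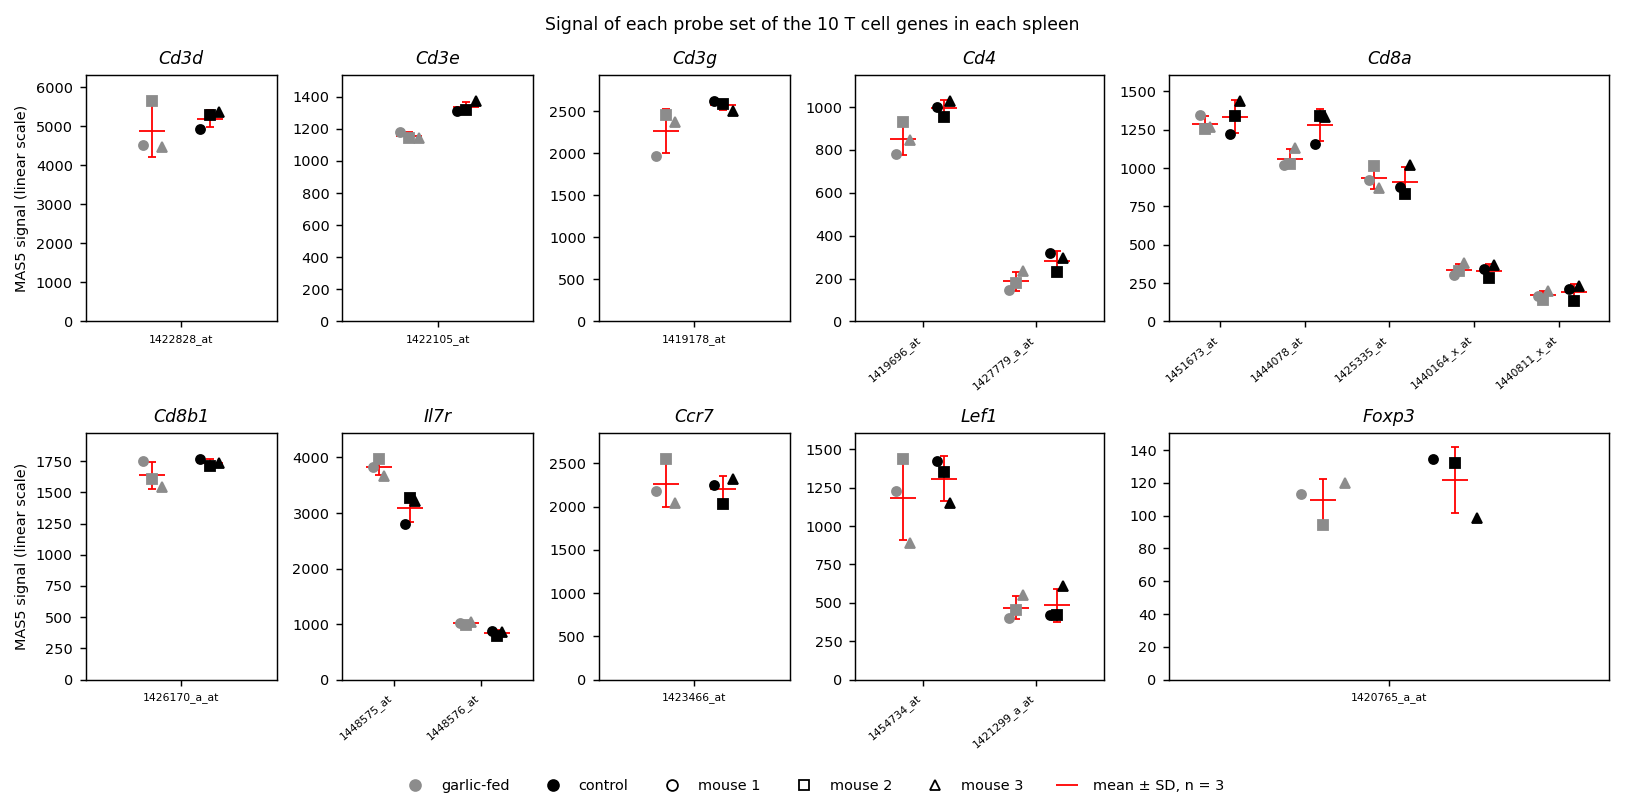
MAS5 signal on a linear scale, starting at 0, of each probe set of the 10 T cell genes in each spleen; gray symbols are garlic-fed mice, black symbols control mice, the symbol shape gives the mouse number, and red bars are means ± SD (n = 3). Il7r stands above the control mice in all garlic-fed mice on both probe sets. Cd3e, Cd3g, the brighter Cd4 probe set and Cd8a 1444078_at stand below.

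Il7r encodes the α chain of the interleukin-7 receptor, which resting T cells use to survive and which precursors of B cells and innate lymphoid cells carry as well. Its brighter probe set (1448575_at) gave 3834, 3969.9 and 3675 in the garlic-fed mice and 2805, 3262 and 3213 in the control mice. The lowest garlic-fed mouse was well above the highest control mouse. The means were 3826 ± 148 in garlic-fed mice and 3094 ± 251 in control mice (SD, n = 3 each), a difference of 23.9%. The log2 fold change was 0.31 (95% interval 0.11 to 0.51, standard error 0.091, adjusted p = 0.226 from limma), and it did not pass the adjusted threshold.

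The other Il7r probe set (1448576_at) gave 1012, 987 and 1044 in the garlic-fed mice and 883, 791 and 861 in the control mice. Its groups did not overlap either, with a log2 fold change of 0.27 (95% interval 0.0285 to 0.50, standard error 0.11, adjusted p = 0.397). Both probe sets read the same RNA samples, so the second is no further replicate of the mice. Il7r kept a positive log2 fold change in every one of the 17 alternative treatments of the data, between 0.21 and 0.39 on the brighter probe set and between 0.22 and 0.34 on the other.

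Ccr7 encodes the chemokine receptor that leads T cells and activated dendritic cells to the T cell zone. It gave 2182, 2548 and 2038 in the garlic-fed mice and 2252, 2027 and 2319 in the control mice. The groups overlapped over most of their range, and the log2 fold change was 0.033 (95% interval -0.21 to 0.28, standard error 0.11, adjusted p = 0.947). Its sign turned without garlic-fed mouse 2, which had the highest Ccr7 signal, to -0.058.

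Lef1 encodes a transcription factor of the TCF and LEF family that is needed in developing T cells and is high in resting ones. Its probe set 1454734_at gave 1229, 1436 and 888 in the garlic-fed mice and 1427, 1353 and 1149 in the control mice. Its probe set 1421299_a_at gave 402, 453 and 550.2 in the garlic-fed mice and 420.3, 421 and 609 in the control mice. The probe sets went against each other: mouse 3 of both groups was the lowest of its group on the first and the highest on the second. The log2 fold changes were -0.17 (95% interval -0.55 to 0.21, standard error 0.17, adjusted p = 0.787) and -0.035 (95% interval -0.45 to 0.38, standard error 0.18, adjusted p = 0.967). Neither kept its sign throughout. The first was 0.027 without garlic-fed mouse 3. The second was 0.14 without control mouse 3 and 0.043 with arrays centred on their median.

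Foxp3, the transcription factor of regulatory T cells, had the dimmest probe set of the 17. It gave 113.5, 94.6 and 120.0 in the garlic-fed mice and 134.5, 132 and 98.7 in the control mice. Control mouse 3 lay below garlic-fed mice 1 and 3, so the groups overlapped. The log2 fold change of -0.15 had a wide interval, -0.69 to 0.40 (standard error 0.25, adjusted p = 0.881), and was 0.033 without the arrays of most pancreatic signal. Whether Foxp3 differed between the diets could not be told from these 3 arrays a group.

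**Figure D2:**
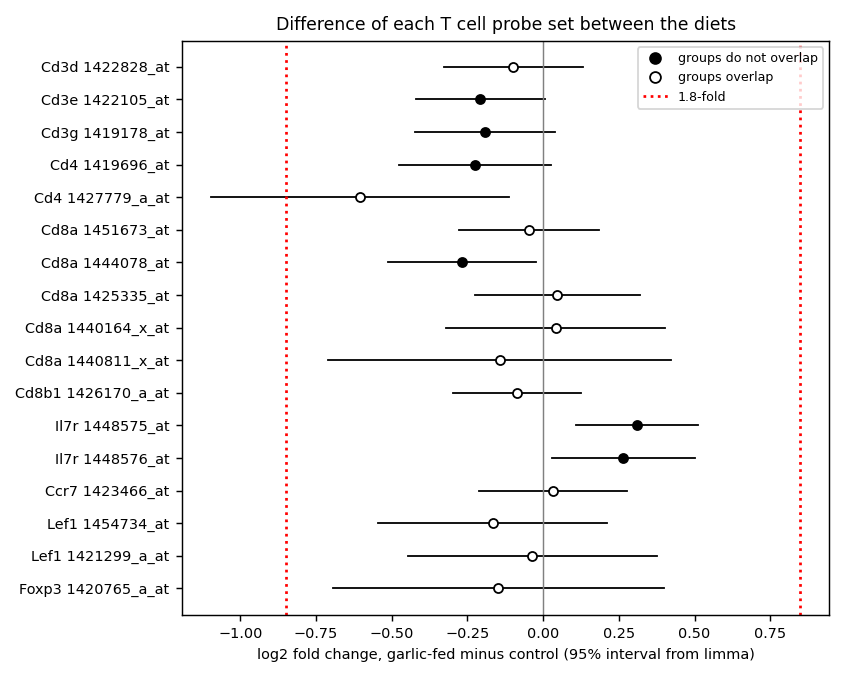
Log2 fold change (garlic-fed minus control) of each of the 17 probe sets with its 95% interval from limma; filled symbols are probe sets whose groups do not overlap, and the red dotted lines mark 1.8-fold. All 17 values lie inside the dotted lines, those of Il7r at 0.31 and 0.27.

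None of the 17 probe sets passed the adjusted threshold, and none reached the 1.8-fold difference that the study used as a criterion. Over all probe sets tested, 0.226% were higher and 0.0111% lower past that threshold. At an unadjusted p under 0.05, 2 of the 17 were lower (the dimmer Cd4 probe set and Cd8a 1444078_at) and 2 were higher (both of Il7r), against 5.44% lower and 5.58% higher of all probe sets. The garlic-fed mice lay below the control mice without overlap on 4 of the 17, and above them on 2. Over all probe sets, 9.29% were below without overlap and 7.52% above. Log2 fold changes were negative for 12 of the 17, where 56.5% of all probe sets had a negative one, and positive for 5, where 43.5% had a positive one. With so few genes, several of which have more than 1 probe set, these counts are only described.

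With each gene taken on its brightest probe set, 8 of the 10 had a negative log2 fold change and 2, Il7r and Ccr7, a positive one, while 55.8% of all genes had a negative one. None of the 10 passed, where 0.343% of all genes were higher and 0.00816% lower past the threshold. The groups did not overlap in 4 of the 10, with Cd3e, Cd3g and Cd4 below and Il7r above, against 10.7% of all genes below and 9.13% above. The median of the 10 was -0.12, beside a median of -0.028 over all 12262 genes tested. In single mice, the median over the 10 genes of the log2 signal relative to the control mean was -0.086, -0.075 and -0.14 in the garlic-fed mice and 0.018, 0.012 and 0.043 in the control mice. It was therefore below that of every control mouse in each garlic-fed mouse, by a small amount. Leaving out garlic-fed mouse 3 brought the median of the 10 genes to -0.044. Centring the arrays on their medians brought it to -0.045, and the median of all genes to 0.050.

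The mean shift of the 3 CD3 genes was -0.255, -0.057 and -0.184 in the garlic-fed mice and -0.023, 0.007 and 0.016 in the control mice, on the log2 scale relative to the control mean. Garlic-fed mouse 1 was the lowest and garlic-fed mouse 2 the closest to the control mice. The brighter probe set of Cd4 stayed within 0.090 of the CD3 shift in every mouse. The dimmer one did not, at -0.67, -0.59 and -0.058 from it in the garlic-fed mice and 0.22, -0.29 and 0.067 in the control mice. Il7r did not stay near the CD3 shift either. Its brighter probe set stood 0.57, 0.42 and 0.44 above the CD3 shift in the garlic-fed mice and -0.115, 0.073 and 0.042 from it in the control mice. On their brightest probe sets, Cd8a, Cd8b1, Ccr7, Lef1 and Foxp3 also departed from it in single mice, as far as -0.37 for Lef1 in garlic-fed mouse 3. Within these arrays Il7r and the CD3 genes thus differed unequally between the diets. This difference was taken up after the values were seen and has no test.

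**Figure D3:**
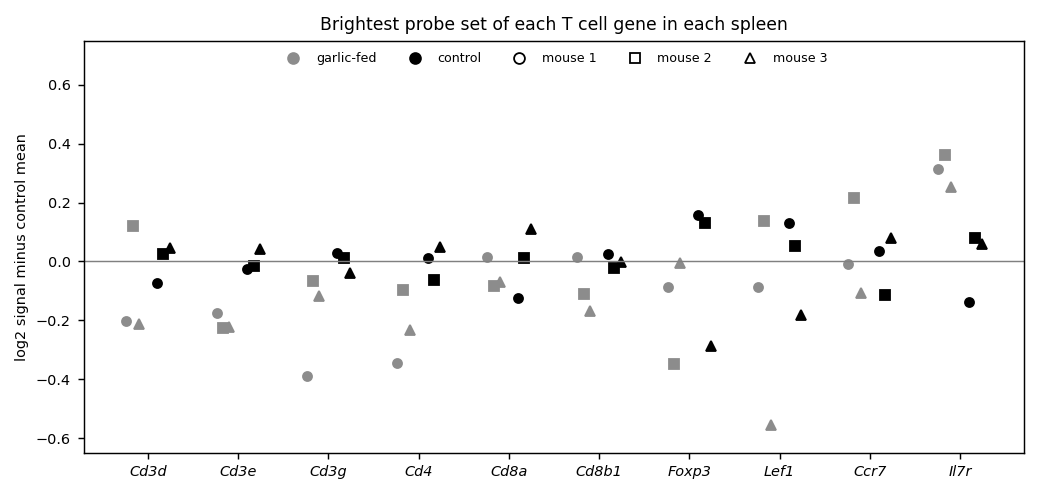
Log2 signal of the brightest probe set of each T cell gene in each spleen minus the mean of the 3 control mice; gray symbols are garlic-fed mice, black symbols control mice, and the shape gives the mouse number. For Cd3e, Cd3g and Cd4 the garlic-fed mice lie below the control mice, and for Il7r, at 0.31, 0.36 and 0.25, above them.

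Further genes of T cell function were taken in 4 lists that hold none of the 10. Of 25 listed genes of the T cell receptor and its signaling, 20 were named by the annotation used and all of these were tested. None passed in either direction, 3 were lower and none higher at an unadjusted p under 0.05. Log2 fold changes were negative for 19 of them, with a median of -0.15, which was -0.070 with median centring and -0.076 with the pancreatic covariate. Ptprcap, a partner of the CD45 phosphatase, differed by -0.070 on the log2 scale (adjusted p = 0.844), and Lcp2, an adaptor below the receptor, by 0.048 (adjusted p = 0.899). These are the 2 brightest of the list. Of 14 tested transcription factors of T cells, none passed, 2 were lower and none higher at an unadjusted p under 0.05, and the median was -0.087. It turned to 0.0029 without garlic-fed mouse 3 and to 0.13 with the pancreatic covariate. Ets1, a factor of resting lymphocytes, differed by -0.10 on the log2 scale (adjusted p = 0.719), and Klf2, which keeps T cells resting, by 0.030 (adjusted p = 0.962).

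Of 8 genes tested for homing and survival of resting T cells, none passed and the median was -0.070. At an unadjusted p under 0.05, none was lower and 1, Cxcr4, was higher. The median turned to 0.0082 with median centring, 0.020 with the mean over probe sets and 0.028 without garlic-fed mouse 3, so it had no settled sign. The 2 brightest of this list were Igfbp4 and Cxcr4. Cxcr4, a chemokine receptor found on many blood cells, gave 4755, 7062 and 4763 in the garlic-fed mice and 2503, 3541 and 4051 in the control mice. All garlic-fed mice were above all control mice, and the difference in log2 signal was 0.72 (standard error 0.19, adjusted p = 0.187). Igfbp4, a binding protein of growth factors that is high in resting T cells, differed by -0.043 (adjusted p = 0.922).

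Of 14 genes tested for regulatory and activated T cells, none passed, 3 were lower and none higher at an unadjusted p under 0.05. The log2 fold change was negative for 13. Their median was -0.30, but it was -0.17 without garlic-fed mouse 1 and -0.14 without the filter on dim probe sets. Cd44, an adhesion molecule of activated cells, differed by -0.090 on the log2 scale (adjusted p = 0.787), and Cxcr5, the receptor that leads B cells and follicular helper T cells to the follicle, by -0.10 (adjusted p = 0.772). For comparison, 6.24% of all genes were lower and 6.89% higher at an unadjusted p under 0.05.

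Markers of other cells were set beside these values. Of 14 B cell genes, none passed, 6 were lower at an unadjusted p under 0.05, and the median was -0.18. It was -0.30 without garlic-fed mouse 1, -0.12 without garlic-fed mouse 3 and -0.10 with median centring. The summed signal was 66824 to 78981 in garlic-fed mice and 76353 to 84913 in control mice. Medians were -0.22 for 12 genes of natural killer and cytotoxic cells, with none past the adjusted threshold, and -0.21 for 10 genes of dendritic cells, also with none. The T cell list was thus not the only lymphoid list below the median of all genes, and no difference between these lists was tested. The 9 red pulp macrophage genes had a median of 0.13 and none passed.

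The 9 erythroid genes went the other way, with a median of 0.99, and 3 of them rose. These were Kel, a red cell surface protein, by 1.40 on the log2 scale (adjusted p = 0.0243), Ank1, of the red cell skeleton, by 1.37 (adjusted p = 0.0137) and Tspan33, by 0.93 (adjusted p = 0.0240). These calls were lost without control mouse 1 or control mouse 2 and without the trend of the variance. They were also lost with the test that the methods name and with the pancreatic covariate. In each of these settings 0 probe sets passed as higher. The 3 genes were not followed in the other alternatives, where as few as 4 probe sets passed as higher, without the filter. The summed signal of the 9 genes was 49118 to 68048 in garlic-fed mice and 32961 to 41196 in control mice, without overlap. The 8 genes of neutrophils and their precursors had a median of 0.67 and the 5 of fat tissue one of 0.67, with none past the threshold in either list. The 11 pancreatic genes had a median of -4.52. All 11 were lower at an unadjusted p under 0.05, where 6.24% of all genes were, and none passed the adjusted threshold. Their summed signal was 2149, 36005 and 2402 in the garlic-fed mice and 141388, 18554 and 66889 in the control mice. The groups overlapped through garlic-fed mouse 2. The part of these cells in the T cell differences was not tested. After garlic-fed mouse 2 and control mouse 1 were left out, which had the most pancreatic signal of their groups, Il7r had log2 fold changes of 0.21 and 0.32 and Cd3e one of -0.21.

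**Figure D4:**
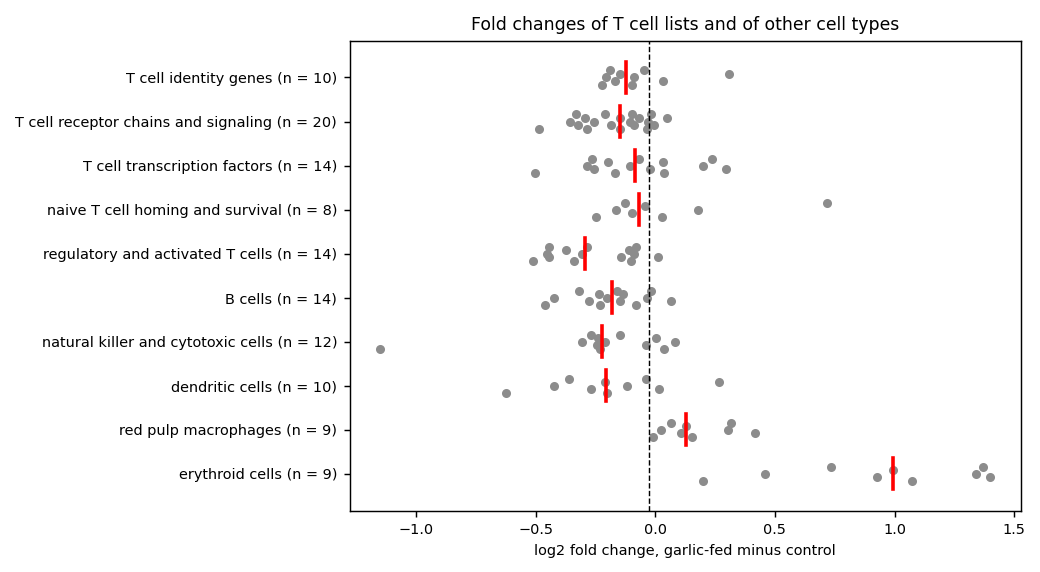
Log2 fold change (garlic-fed minus control) of each gene, on its brightest probe set, in the T cell lists and in lists of other cell types; gray points are genes, red bars the list medians, and the dashed line the median of all genes tested. The medians of the T cell, B cell, natural killer and dendritic lists lie between -0.30 and -0.070, and that of the erythroid list at 0.99.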

How the data were processed

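Biotin-labeled cRNA of 6 mouse spleens was hybridized to Affymetrix arrays. The authors deposited 1 intensity for each probe set and array, a MAS5 signal on a linear scale. All arrays had the same mean after the highest and lowest 2% of signals were left out, as read from the values. The MAS5 version is not given in the sources used here. Precision is limited by having 3 arrays a group, and an exact permutation test of 3 against 3 could not go below p = 0.1.

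The 64 control probe sets were left out, and 45037 remained. The annotation of the array gave 34945 of them 1 gene, 932 several and 9160 none. Of those with 1 gene, 34741 were matched to the RefSeq table by identifier. Signals were raised to a floor of 23.5 (percentile 20) before log2 was taken, so the floor and the filter can understate differences of dim genes. A probe set entered the test when its mean log2 signal exceeded 6.08 (percentile 40). The test was done with limma 3.58.1 in R 4.3.3 (its linear model and moderated test, with a trend of the variance), fitted on the whole table without a replicate block, with garlic-fed minus control as the contrast. A gene was represented in lists by its brightest probe set. The procedure was tested on simulated data with known differences, all larger than those of the T cell genes. That run does not show how well differences as small as theirs are found. Figures were drawn with matplotlib 3.10.9.

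Named are all members and, of each T cell list, the genes past the adjusted threshold or, where none passed, the 2 brightest. The 5 genes most like the CD3 genes over the arrays are also named. The rule covers the lists of other cells too, of which the report names only the genes that passed. Genes outside the rule, Gzmk among them, are named as chosen after their values were seen. Listed genes without a probe set of their own in the annotation used were not analysed here. The members, lists and rule were chosen with earlier results of these data known. Alternatives tried were quantile normalization, median centring, no floor or a higher one, no filter or a stricter one, no trend, the methods' ANOVA on log2 signals, a replicate block, omission of single arrays, 2 treatments of pancreatic signal, and the mean over a gene's probe sets.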

Additional observations from a re-analysis of the deposited data

How the results depend on the processing

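Of 286 values of the 17 T cell probe sets under the alternatives, 267 kept their sign, 19 turned it, and none passed the adjusted threshold (lowest adjusted p 0.15). Under the stricter filter 3 of the 17 had no value. Besides leaving out 1 array, these turned. With arrays centred on the median, Cd8a 1451673_at was 0.032 and Lef1 1421299_a_at 0.043. Without the array of most pancreatic signal in each group, Cd8a 1425335_at was -0.037, Cd8a 1440811_x_at 0.070, Ccr7 -0.040 and Foxp3 0.033. With pancreatic signal as a covariate, which overlaps with the diet, Cd3d was 0.089 and Lef1 1454734_at 0.12. Leaving out 1 array in turn gave -0.11 to 0.0094 for Cd8a 1451673_at, -0.015 to 0.13 for 1425335_at, -0.067 to 0.12 for 1440164_x_at, -0.39 to 0.016 for 1440811_x_at, -0.058 to 0.10 for Ccr7, -0.32 to 0.027 for Lef1 1454734_at and -0.16 to 0.14 for 1421299_a_at. The median of the 10 genes was -0.045 with arrays centred on the median, -0.071 with the covariate, and -0.14 to -0.044 without single arrays.

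At an unadjusted p under 0.05, T cell probe sets counted 2 lower and 2 higher. Lower were 1 with median centring, 1 with the stricter filter, 1 without the trend and 1 without the pancreatic arrays. Without the filter 4 were lower, with the methods' ANOVA 3 and with the covariate 0. Without single arrays 0 to 3 were lower (0 without garlic-fed mouse 1 or control mouse 3). Higher were 0 without the pancreatic arrays, 0 with the covariate and 1 to 2 without single arrays. Of all probe sets, 61 passed the adjusted threshold as higher and 3 as lower. Counts were 147 higher with median centring, 6 lower with the higher floor, 4 and 7 without the filter, 8 and 28 without the pancreatic arrays, and 0 and 0 without the trend, with the methods' ANOVA or with the covariate. Without single arrays they were 0 to 103 higher and 0 to 33 lower, with 0 higher without control mouse 1 or control mouse 2. The cause of these shifts was not tested.

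The labels tie same-numbered mice of the groups by a number alone and name no pairing. Their deviations from the group means correlated at 0.0006, -0.18 and 0.08. With 3 mice a group, these values cannot show whether such mice shared a condition. With the replicate block, 270 probe sets were higher and 25 lower, and none of the T cell genes passed.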

Other observations

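Some genes of the lists, on their brightest probe sets, had larger log2 fold changes in size than any of the 10 identity genes on theirs. They are named here after their values were seen, and none passed the adjusted threshold from limma. Cxcr3, a chemokine receptor of activated T cells and natural killer cells, gave 1266, 1317 and 1722 in the garlic-fed mice and 1909, 2046 and 2134 in the control mice (log2 fold change -0.51, standard error 0.13, adjusted p = 0.156). Tnfrsf18, which encodes GITR, a receptor high on regulatory T cells, gave 719.8, 812 and 846 in the garlic-fed mice and 1041, 1111 and 1073 in the control mice (log2 fold change -0.44, standard error 0.11, adjusted p = 0.161). Ikzf2, which encodes Helios, a transcription factor of many regulatory T cells, gave 1016, 1253.5 and 1323 in the garlic-fed mice and 1721, 1554 and 1586 in the control mice (log2 fold change -0.44, standard error 0.12, adjusted p = 0.197). The groups did not overlap in any of these 3 genes. In their list, 4 of the 14 genes tested were below without overlap, against 10.7% of all genes, and this was not tested. Foxp3 itself, the marker of regulatory T cells, had overlapping groups.

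Of the signaling genes, Sh2d1a, which encodes the adaptor SAP, gave 365, 439.9 and 381 in the garlic-fed mice and 532.5, 559 and 563 in the control mice (log2 fold change -0.48, standard error 0.13, adjusted p = 0.198). Gzmk, from the list of natural killer and cytotoxic cells, which encodes a granzyme of cytotoxic and memory T cells, gave 151, 207 and 476 in the garlic-fed mice and 567, 651 and 440.2 in the control mice. Garlic-fed mouse 3 stood inside the control range, and the log2 signal of Gzmk differed by -1.15 (standard error 0.35, adjusted p = 0.248).

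The genes whose log2 signal over the 6 arrays was most like the mean of the CD3 genes, by Pearson's r among 12259 other genes, were Tmem53 (0.99), Tox2 (0.98), Efcab2 (0.98), Tbx21 (0.98) and Exoc3l2 (0.98). They were picked as the highest of many, so these values are a description over 6 arrays that share their group difference. Tbx21 encodes T-bet, a transcription factor of type 1 helper T cells and natural killer cells, and Tox2 a factor of the TOX family. Tmem53 had a signal of 5.1 in garlic-fed mouse 1, under the floor.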
